A study of Mus musculus with 6 samples.

Results

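The genes described here are the mouse Zfp genes that were expressed in 2 kinds of mononuclear phagocyte, monocytes sorted from bone marrow (BMDM) and microglia sorted from the brainstem (BSM). A Zfp gene carries the symbol Zfp followed by a number, the mouse name for a zinc finger protein gene. Members were chosen by their measured level, which had to reach an FPKM of 1 in 2 or more of the 6 libraries, and Zfp36 was left out by the rule. FPKM is a count of sequenced fragments divided by the length of the gene's exons and by the size of the library. This kept 143 of 320 Zfp genes, in a table of 35237 genes in which 8467 reached the same level. Of the members, 101 reached the minimum in 2 or more libraries of both cell types, 12 did so in BMDM alone, 24 in BSM alone, and 6 reached it in 1 library of each. A member that entered through 1 cell type alone had to differ between the cell types, so the counts of members below are descriptions. All 143 members passed the level filter of the test, which used the same minimum. The members just inside it were Zfp639, with a second highest FPKM of 1.00, and Zfp53 with 1.01, and the genes just outside were Zfp40 with 0.972 and Zfp653 with 0.946.

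All mice were C57BL/6 animals at 6 weeks of age, with no transgene or treatment named in the labels. There were 3 libraries of each cell type, and replicate 1 of each came from male mice and replicates 2 and 3 of each from female mice. Each library was made from the pooled cells of a set of mice, so a library is a pool and not an animal. BMDM were sorted as CD11b+ CD45high CD115+ Ly6G- cells and BSM as CD11b+ CD45low CD115low Ly6G- cells, and RNA was amplified before sequencing. The comparison asks which zinc finger genes differ in expression between monocytes of the marrow and the resident macrophages of the brain.

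Zinc finger proteins fold around zinc ions that are held by cysteine (C) and histidine (H) residues. In the C2H2 type the ion is held by a pair of cysteines and a pair of histidines, and arrays of such fingers bind DNA in a sequence-dependent way. Many C2H2 proteins also carry a KRAB domain, which recruits the corepressor Trim28 and with it enzymes that lay down repressive chromatin, and this family is best known for silencing retroelements and keeping imprints. In the CCCH proteins of the Zfp36 family the fingers bind AU-rich elements of messenger RNA. The proteins also bring in the CCR4-NOT deadenylase, by which cytokine transcripts are cleared in macrophages.

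The fingers themselves are shown for the CCCH pair and for a few C2H2 members as examples of both finger types, as the coding strand, read 5′ to 3′ from transcripts of GENCODE M21 (build GRCm38) with the zinc-holding codons in capitals. The tandem CCCH fingers of Zfp36l1 and of its paralog Zfp36l2 are given because only Zfp36l1 was called between the cell types by limma with all libraries, while their fingers are nearly alike: 152 of 174 bases (87.4%) and 54 of 58 encoded residues (93.1%) were identical.
Zfp36l1: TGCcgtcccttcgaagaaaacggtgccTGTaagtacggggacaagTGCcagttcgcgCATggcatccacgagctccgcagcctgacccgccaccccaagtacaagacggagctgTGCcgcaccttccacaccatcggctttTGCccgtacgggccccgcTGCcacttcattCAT
Zfp36l2: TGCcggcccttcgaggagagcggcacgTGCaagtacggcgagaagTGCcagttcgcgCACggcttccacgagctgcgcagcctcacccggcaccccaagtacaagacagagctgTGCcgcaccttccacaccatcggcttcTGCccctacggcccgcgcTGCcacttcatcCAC
For the C2H2 type, the first finger that is followed by a canonical linker is given for Zfp37, Zfp90 and Zfp715, members with a KRAB-like pattern in their protein that were called higher in BSM. Each spans 78 bases with its linker and has 4 zinc-holding codons for its 1 finger, and each CCCH stretch has 8 for its 2 fingers.
Zfp37: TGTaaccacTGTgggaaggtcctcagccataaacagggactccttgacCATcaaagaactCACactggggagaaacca
Zfp90: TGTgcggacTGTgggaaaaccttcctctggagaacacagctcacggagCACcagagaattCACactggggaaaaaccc
Zfp715: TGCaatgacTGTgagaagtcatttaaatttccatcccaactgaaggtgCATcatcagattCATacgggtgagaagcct

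Summed over all genes, FPKM came to 163199 to 194184 in the BMDM libraries and 68288 to 75021 in the BSM libraries, so calls were made both on the values as deposited (unscaled) and after quantile normalization, which gives every library the same distribution of values. Differences are log2 fold changes of FPKM + 1, positive where BMDM were higher, and they understate the change of genes at low level. Adjusted p-values are from limma over all 8467 genes. Over all tested genes the median difference was 0.66 unscaled and -0.02 after quantile normalization. The labels held against defining markers: 5 monocyte markers summed to an FPKM of 365 to 403 in BMDM and 1.06 to 1.58 in BSM, and 7 microglia markers to 17.8 to 20.8 and 1131 to 1296. Of 5 granulocyte markers 4 reached an FPKM of 1 in a BMDM library and 0 in a BSM library, where Ly6g, Elane, Camp and Ltf were listed at 0, and their sum was 43.2, 247 and 78.4 in the BMDM libraries and at most 0.00913 in BSM. The 4 erythroid markers that reached an FPKM of 1 summed to 8.05, 48.5 and 7.07 in BMDM and at most 0.163 in BSM, so BMDM replicate 2 was highest for both lists. Astrocyte markers summed to 5.31 to 9.52 in BSM with Gfap listed at 0 in all libraries, against at most 0.0972 in BMDM, and neuron markers to at most 0.249. Sums in BMDM and BSM were 275 to 318 and 234 to 515 for markers shared by myeloid cells, 5.58 to 8.62 and 0.927 to 1.21 for oligodendrocytes, 2.29 to 3.81 and 1.04 to 2.80 for endothelial cells, 0.345 to 3.61 and 0.317 to 0.687 for lymphocytes, 1.48 to 3.93 and 4.85 to 11.3 for progenitors, and 1.74 to 2.33 and 0.470 to 4.17 for perivascular macrophages. Some of these sums rested mostly on 1 gene. These genes were Mpo for granulocytes in BMDM, Slc1a3 for astrocytes in BSM, Mbp for oligodendrocytes and Cd34 for progenitors in BSM. Mpo was at 32.7, 181 and 67.1 in BMDM, where Ly6g was listed at 0, 0.293 and 0. Cd34 was at 4.72 to 11.3 in BSM, while the other progenitor markers, Kit and Flt3, were higher in every BMDM library. Among the shared myeloid markers, Itgam was listed at 0 in BSM replicate 2, against 176 and 100 in replicates 1 and 3. BSM replicate 1 stood apart from the other BSM libraries: 18.5% of all tested genes were under an FPKM of 0.1 in it, against 5.20% and 5.18% in the others. The study's RNA quality records list this sample with the lowest RNA integrity and amount, and their part in its values was not tested.

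Most members were expressed at a low level. The median of the members' mean FPKM was 2.05, against 3.16 for all tested genes, with a range of 0.426 to 43.0. A mean under 3 was seen for 94 members and a mean of 10 or more for 7. The members together made up 0.241% to 0.329% of all FPKM in BMDM and 0.757% to 0.887% in BSM. Their own sum hardly differed, with an FPKM of 468 to 570 in BMDM and 543 to 606 in BSM, and the 2 ranges overlapped. In BMDM the order was led by Zfp106, Zfp207, Zfp326, Zfp62 and Zfp36l2. In BSM it was led by Zfp36l1, followed by Zfp62, Zfp207, Zfp106 and Zfp326. Zfp36l1 was thus first of 143 in BSM and 88th in BMDM, and the other genes at the head of one order stood within the first 10 of the other.

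**Figure D1:**
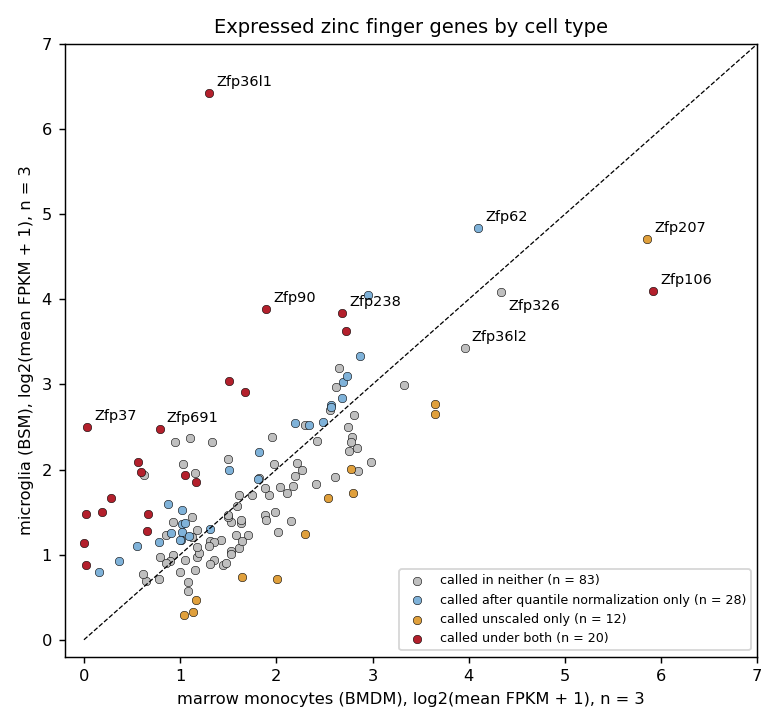
Mean level of the 143 expressed zinc finger genes in BMDM (x axis) and BSM (y axis), as log2(mean FPKM + 1) over 3 libraries each, with the line of equal level dashed. The 20 genes called under both scalings are red, 12 called only unscaled are orange, 28 called only after quantile normalization are blue and 83 called in neither are grey. Zfp36l1 lies far above the line and Zfp106 and Zfp207 below it.

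Unscaled, 13 members (9.09%) were called higher in BMDM and 19 (13.3%) higher in BSM, against 42.0% and 8.7% of all tested genes. After quantile normalization 1 member (0.699%) was called higher in BMDM and 47 (32.9%) higher in BSM, against 20.4% and 18.4% of all tested genes. The members' median log2 fold change was 0.03 unscaled and -0.60 after quantile normalization, or -0.63 and -0.58 relative to the median of all tested genes. Every BMDM library lay above every BSM library for 26 members (18.2%, against 52.4% of all tested genes), and the reverse held for 25 (17.5%, against 11.1%). Groups overlapped for 92 members, and the group means were within 2-fold of each other for 95. Calls in one direction under both scalings were made for 19 genes in BSM and for Zfp106 in BMDM. The 19 were all the members called in BSM unscaled, where the share of all tested genes was 8.7%. A further 28 were called in BSM only after quantile normalization. No member called unscaled changed sign after quantile normalization, and 83 were called in neither. Shares of all tested genes for these combinations of scalings were not counted. Among the 101 members that reached the minimum in both cell types, 8 were called in each direction unscaled, and 1 in BMDM and 28 in BSM after quantile normalization. The shares of all tested genes above are not a like background for these 101, and none was counted at the same minimum. In bulk samples, fewer cells of a type and less RNA per cell cannot be told apart.

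**Figure D2:**
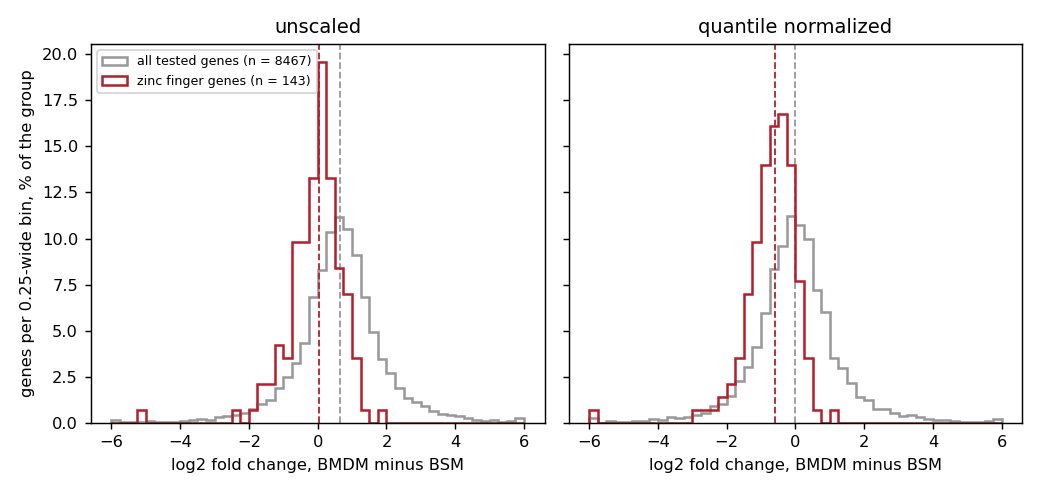
Share of genes (y axis, % of each group per 0.25-wide bin) by log2 fold change of BMDM minus BSM (x axis), for all 8467 tested genes in grey and the 143 zinc finger genes in red, unscaled on the left and quantile normalized on the right. Values beyond the axis are drawn in the end bins, and dashed lines mark medians, which are 0.66 and 0.03 on the left and -0.02 and -0.60 on the right.

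The 2 CCCH members, whose proteins bind AU-rich messenger RNA and promote its decay, had different patterns. Zfp36l1 (mm9, chr12:81208747-81214000) had an FPKM of 1.17, 1.07 and 2.14 in the BMDM libraries and 105, 80.7 and 67.7 in the BSM libraries. All BSM libraries were thus far above all BMDM libraries, by 58.0-fold between the means (1.46 ± 0.591 against 84.6 ± 19.1, SD, n = 3 each). The log2 fold change was -5.12 ± 0.28 (SE, adjusted p = 1.11e-05) unscaled and -5.77 (adjusted p = 6.37e-06) after quantile normalization, and the unscaled value without BSM replicate 1 was -4.95. Zfp36l1 was the lowest of the 143 members on this scale. For 56.1% of its annotated transcript a stretch of at least 95% identity is annotated in at least 1 other gene, so its reads could be split between them. Zfp36l2 (mm9, chr17:84583271-84587287) had an FPKM of 12.2, 17.1 and 14.2 in BMDM and 11.7, 8.22 and 9.36 in BSM. The groups did not overlap, but the difference of 0.53 ± 0.24 (SE) did not pass the test (adjusted p = 0.104), was -0.21 after quantile normalization, and passed unscaled without BSM replicate 1 (adjusted p = 0.0272). Zfp36, another gene of the family and not a member, had an FPKM of 231 ± 92.6 in BMDM and 722 ± 192 in BSM (SD, n = 3 each). Its log2 fold change was -1.68 (adjusted p = 0.00411) unscaled and -2.44 after quantile normalization.

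From a list of 9 genes with roles in RNA processing, splicing or the ribosome, 5 were members, and of these 3 were called higher in BMDM unscaled and 1 after quantile normalization, with none higher in BSM by limma (0 unscaled and 1 after quantile normalization at an unadjusted p under 0.05). Of all tested genes, 42.0% were called in BMDM unscaled and 20.4% after quantile normalization. Zfp106, an RNA-binding protein needed for the upkeep of the neuromuscular system (mm9, chr2:120332556-120389579), had an FPKM of 61.3, 48.4 and 68.3 in BMDM and 14.7, 16.4 and 17.2 in BSM. The groups were well apart, and the log2 fold change was 1.81 ± 0.22 (SE, adjusted p = 0.000529) unscaled and 1.02 (adjusted p = 0.0122) after quantile normalization. It was not called with upper quartile scaling or with scaling to the same sum. Zfp207, a spindle assembly factor also linked to splicing (mm9, chr11:80196781-80219235), had an FPKM of 55.3, 58.2 and 57.6 in BMDM and 21.3, 26.5 and 27.4 in BSM. Its unscaled difference of 1.16 ± 0.21 passed the test (SE, adjusted p = 0.00291), while after quantile normalization it was 0.39 (adjusted p = 0.192). Zfp830, a spliceosome-associated protein, was likewise called unscaled only, with an FPKM of 4.80 ± 0.486 in BMDM and 2.16 ± 1.12 in BSM. Zfp622, which acts in the maturation of the large ribosomal subunit, had an FPKM of 1.79 ± 0.342 and 0.876 ± 0.245, and did not pass (adjusted p = 0.0655 unscaled and 0.88 after quantile normalization). Zfp326, which couples transcription elongation to splicing, had nearly equal levels of 19.3 ± 3.06 and 15.9 ± 1.22 and did not pass (adjusted p = 0.377 unscaled and 0.0839 after quantile normalization).

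The genes called higher in BSM under both scalings were Zfp36l1 and 18 C2H2 genes, and in each of these 19 every BSM library was above every BMDM library. Their log2 fold changes ran from -5.12 to -0.62 unscaled and from -5.77 to -1.14 after quantile normalization. Of the 19, 11 reached the membership minimum in BSM alone and so had to differ, and for these the values are given with no p: Zfp37, Zfp69, Zfp275, Zfp455, Zfp532, Zfp658, Zfp691, Zfp697, Zfp770, Zfp810 and Zfp827. Those of all 19 with a KRAB-like pattern in the encoded protein were Zfp37, Zfp90, Zfp658, Zfp810, Zfp715, Zfp69, Zfp788, Zfp74 and Zfp455. Zfp37 (mm9, chr4:61850574-61869480) had an FPKM of 0.0737, 0 and 0 in BMDM and 6.55, 4.19 and 3.16 in BSM. It was thus close to undetected in BMDM and at a moderate level in all BSM libraries, with a log2 fold change of -2.42 unscaled and -2.77 after quantile normalization. Zfp90 (mm9, chr8:108939239-108949789) had an FPKM of 2.70, 2.30 and 3.16 in BMDM and 12.3, 16.3 and 12.7 in BSM, a log2 fold change of -1.99 ± 0.24 (SE, adjusted p = 0.000436) unscaled and -2.69 after quantile normalization. It was therefore expressed in both cell types, with BSM at 5.06 times the BMDM mean, though 69.1% of its transcript has such a copy elsewhere. Zfp715 had an FPKM of 1.92, 2.36 and 2.32 in BMDM and 4.92, 7.07 and 7.54 in BSM (adjusted p = 0.00514 unscaled and 0.000393 after quantile normalization). Zfp658 had an FPKM of 0.392, 0.469 and 0.574 in BMDM and 3.77, 3.18 and 2.84 in BSM, a log2 fold change of -1.52 unscaled and -2.07 after quantile normalization. Zfp810 stood at 0.218 ± 0.110 in BMDM, and its BSM values of 4.03, 1.12 and 1.36 were highest in replicate 1. Zfp69 went the other way, with 0.142 ± 0.102 in BMDM and 0.519, 2.76 and 2.23 in BSM, so that replicate 1 was lowest. Without BSM replicate 1 the log2 fold change was -0.88 for Zfp810 and -1.61 for Zfp69, against -1.27 and -1.21 with it.

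The other genes called higher in BSM under both scalings were C2H2 genes with no KRAB-like pattern, namely Zfp691, Zfp318, Zfp827, Zfp770, Zfp238, Zfp532, Zfp652, Zfp697 and Zfp275. Zfp691 (mm9, chr4:118842118-118846800) had an FPKM of 0.344, 0.512 and 1.32 in BMDM and 3.69, 6.31 and 3.63 in BSM, a log2 fold change of -1.69 unscaled and -2.31 after quantile normalization. Zfp827, whose human counterpart brings the NuRD complex to telomeres, was at 0.0201, 0.00256 and 0.0324 in BMDM and at 2.37, 1.63 and 1.34 in BSM. Its BMDM level was thus near 0 in every library. Zfp238, also known as Zbtb18 and a repressor with a role in the development of cortical neurons, had an FPKM of 5.38, 4.35 and 6.50 in BMDM and 17.2, 10.5 and 12.1 in BSM (adjusted p = 0.00981 unscaled and 0.00125 after quantile normalization). It was expressed in both cell types, at 2.45 times the BMDM mean in BSM. Zfp770 stood at 0.504 ± 0.249 in BMDM and 2.91 ± 0.842 in BSM (SD, n = 3 each).

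**Figure D3:**
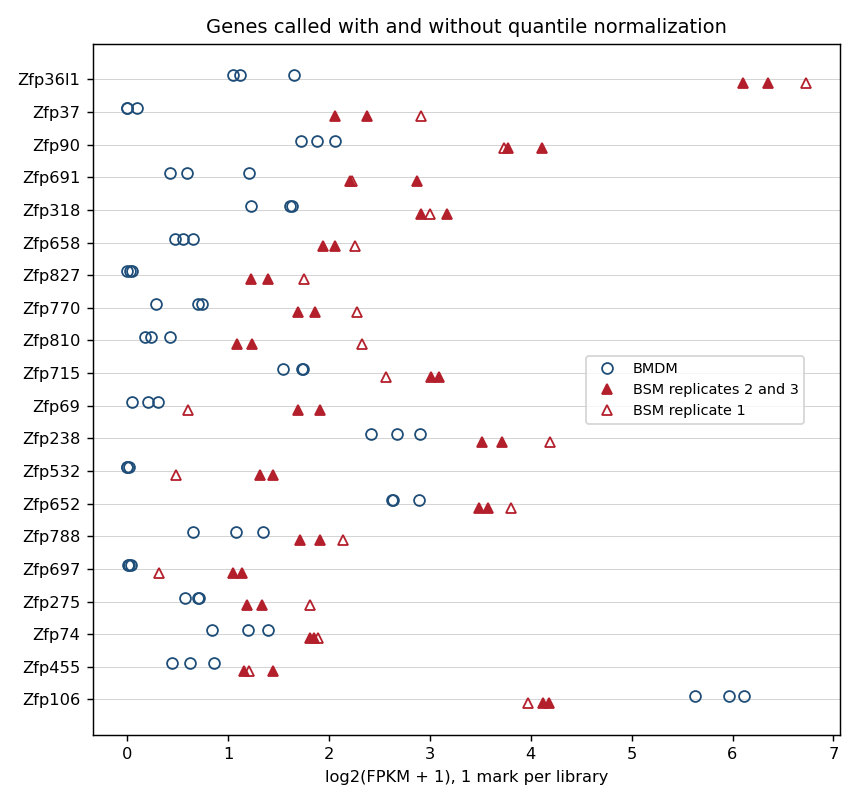
Level in each library, as log2(FPKM + 1) on the x axis, of the 20 zinc finger genes called under both scalings (y axis, ordered by log2 fold change). Open circles are the 3 BMDM libraries, filled triangles BSM replicates 2 and 3, and open triangles BSM replicate 1. The groups do not overlap in any of the 20 rows, BSM replicate 1 is the lowest BSM library for Zfp69, Zfp90, Zfp106, Zfp532, Zfp697 and Zfp715, and Zfp106 alone lies higher in BMDM.

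Promoter and chromatin regulators made up 19 members, from a list of 27 genes. Unscaled, 2 were called higher in BMDM (Zfp91 and Zfp217) and 3 higher in BSM (Zfp318, Zfp532 and Zfp652). After quantile normalization none was called in BMDM, also with 0 at an unadjusted p under 0.05, and 7 were called in BSM, the further ones being Zfp451, Zfp292, Zfp280d and Zfp644. Of all tested genes, 42.0% were called in BMDM and 8.7% in BSM unscaled, and 20.4% and 18.4% after quantile normalization. Zfp318, needed for the joint expression of IgM and IgD in B cells (mm9, chr17:46520680-46557869), had an FPKM of 2.11, 1.34 and 2.05 in BMDM and 7.04, 6.53 and 8.03 in BSM. The groups lay wide apart, with a log2 fold change of -1.54 ± 0.24 (SE, adjusted p = 0.00159) unscaled and -2.22 after quantile normalization. Zfp652, a repressor that works with ETO-family corepressors, had an FPKM of 5.22, 5.17 and 6.44 in BMDM and 12.96, 10.2 and 10.9 in BSM (adjusted p = 0.0126 unscaled and 0.000794 after quantile normalization). Zfp532 belongs with Zfp592 and Zfp687 to a complex of related proteins. It was listed at 0, 0 and 0.0108 in BMDM and at 0.395, 1.49 and 1.73 in BSM, with replicate 1 lowest. Its partners differed less, with an FPKM of 3.52 ± 0.907 in BMDM and 2.49 ± 1.13 in BSM for Zfp592 (SD, n = 3 each). Zfp687 had 1.404, 1.01 and 1.27 in BMDM and 0.0917, 1.15 and 1.06 in BSM, and neither passed the test (adjusted p = 0.314 and 0.297 unscaled, 0.598 and 0.389 after quantile normalization). Zfp91, a ubiquitin ligase of the noncanonical NF-kB pathway, had an FPKM of 10.3, 11.4 and 12.8 in BMDM and 2.88, 6.04 and 6.96 in BSM. Zfp217, found in complexes with the histone demethylase LSD1, had an FPKM of 6.27, 4.89 and 6.42 in BMDM and 3.15, 2.63 and 3.23 in BSM. Both were higher in every BMDM library, and both were called unscaled only (adjusted p = 0.025 and 0.0255, against 0.523 and 0.833 after quantile normalization). Zfp451, a SUMO ligase, had an FPKM of 8.19, 3.91 and 8.16 in BMDM and 26.3, 8.65 and 11.6 in BSM. Its replicate 1 value was more than 2 times the other BSM libraries, and it did not pass unscaled (adjusted p = 0.0893) but did after quantile normalization (adjusted p = 0.0207). By ALEXA-Seq, a second estimate from the same libraries, it passed unscaled (adjusted p = 0.0497).

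The remaining regulators on that list overlapped between the cell types or fell short of the threshold under both scalings. Zfp143, which binds many promoters at the anchors of chromatin loops, had an FPKM of 6.23, 3.83 and 5.32 in BMDM and 1.00, 3.43 and 3.89 in BSM. Zfp148, which binds GC-rich promoter elements, had 8.04, 4.52 and 5.97 in BMDM and 0.603, 4.86 and 5.86 in BSM. In both genes BSM replicate 1 alone lay far under the other libraries. Zfp281, a repressor known from pluripotent cells, followed the same order in BSM, with 0.470 in replicate 1 and 1.85 and 2.51 in the others. Zfp384, Zfp407, Zfp608, Zfp609 and Zfp280c had log2 fold changes of 0.10 to 0.97 unscaled and -0.60 to 0.21 after quantile normalization, and none passed (unscaled adjusted p of 0.0763 to 0.760).

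The list of genes for imprint maintenance and retroelement silencing held 6 genes, of which 3 were members. None was called unscaled in either direction by limma, with 0 at an unadjusted p under 0.05. Zfp809, which silences proviruses of murine leukemia virus, had an FPKM of 11.8, 5.55 and 9.63 in BMDM and 3.52, 8.14 and 9.22 in BSM. The groups overlapped, and the adjusted p was 0.471 unscaled and 0.432 after quantile normalization. Zfp445, which keeps imprints together with Zfp57, had 5.07, 4.11 and 4.59 in BMDM and 5.57, 4.54 and 4.53 in BSM, with a log2 fold change of -0.07 unscaled and -0.78 (adjusted p = 0.0331) after quantile normalization. Zfp568, a repressor of a placental Igf2 transcript, had 1.12 ± 0.329 in BMDM and 0.605 ± 0.145 in BSM (SD, n = 3 each, adjusted p = 0.143 unscaled and 0.572 after quantile normalization).

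The 12 members called higher in BMDM unscaled and not called after quantile normalization were Zfp367, Zfp330, Zfp207, Zfp386, Zfp91, Zfp830, Zfp422, Zfp51, Zfp414, Zfp217, Zfp53 and Zfp101. Most of these are outside the rule for named genes and were chosen after their values were seen. Zfp367 had an FPKM of 2.95, 2.11 and 4.00 in BMDM and 0.0223, 0.923 and 0.994 in BSM. Its log2 fold change was 1.32 unscaled and 0.73 after quantile normalization. Zfp53, one of the genes nearest the membership minimum, had 1.01, 0.556 and 1.61 in BMDM and 0.00494, 0.238 and 0.434 in BSM. Its log2 fold change was 0.73 unscaled and 0.60 without BSM replicate 1, where it was not called. Zfp51, Zfp53, Zfp101, Zfp367 and Zfp414 reached the membership minimum in BMDM alone and so had to differ. The granulocyte markers (mostly Mpo) and erythroid markers given above were detected in the same BMDM libraries, most in replicate 2, and their part in these differences was not tested.

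Protein patterns were looked up for 142 members and 171 of the other Zfp genes. A KRAB-like pattern together with C2H2 fingers was found in 67 members (47.2%) and in 78 of the other genes (45.6%). C2H2 fingers with no KRAB-like pattern were found in 71 (50.0%) and 84 (49.1%). Other domains were not looked up, and a KRAB domain that the pattern missed would fall in this second class. The median number of fingers was 10 both for members and for the other genes, and the highest among members was 36, in Zfp142. The KRAB-like members had a median of 12 fingers and a median FPKM of 1.87, and C2H2 members with no such pattern had 8 fingers and an FPKM of 2.63. Median log2 fold changes were -0.10 and 0.17 unscaled and -0.75 and -0.50 after quantile normalization, so the median of the KRAB-like members lay lower under both. Unscaled, 4 KRAB-like members were called in BMDM and 9 in BSM, against 8 and 9 of the C2H2 members with no such pattern. The unscaled shares called in BSM were thus nearly equal, at 13.4% and 12.7%. After quantile normalization 27 KRAB-like members (40.3%) and 19 of the C2H2 members with no such pattern (26.8%) were called in BSM. Of all tested genes, 42.0% were called in BMDM and 8.7% in BSM unscaled, and 20.4% and 18.4% after quantile normalization. The difference between the 2 classes was not tested. No C2H2 pattern was found in Zfp259 and Zfp330.

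**Figure D4:**
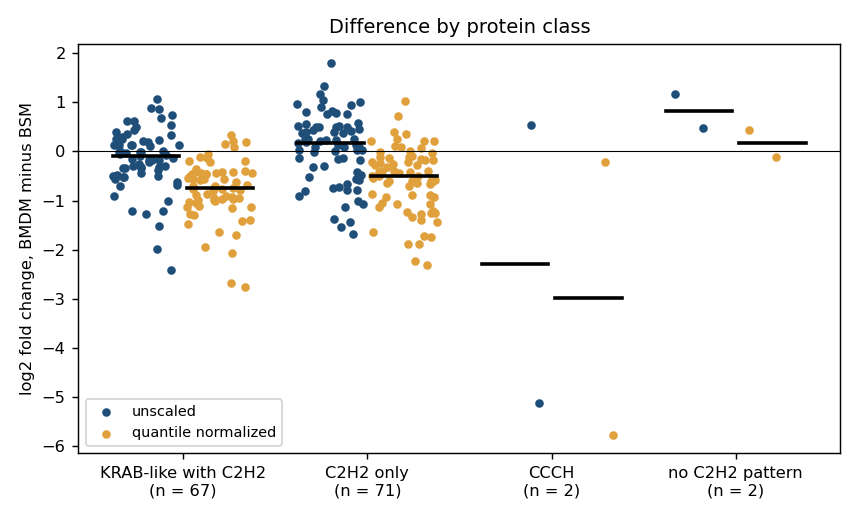
Log2 fold change of BMDM minus BSM (y axis) for the members by protein class (x axis), with 1 point per gene, unscaled in blue and quantile normalized in orange, and black bars at the class medians. KRAB-like genes have medians of -0.10 and -0.75, and C2H2 genes with no KRAB-like pattern (C2H2 only) of 0.17 and -0.50. The outlying CCCH gene is Zfp36l1.

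Zfp genes lie in clusters, and 75 of the 143 members had another member within 1000000 bases. Chromosome 7 held 28 members, chromosome 17 held 18 and chromosome 13 held 14. The largest run of members was of 9 genes at chr17:32910210-33768657 (mm9), 7 of them KRAB-like, with log2 fold changes of -0.51 to 0.83. A second, at chr13:67295442-67856165, held 8 members that were all KRAB-like, with log2 fold changes of -0.62 to 0.33 and 1 call, in BSM (Zfp455). The third, at chr7:30553571-30954746, held 7 with log2 fold changes of -0.79 to 0.88. The fourth, at chr17:21145905-22514248, held 6 KRAB-like members with values of -0.13 to 0.86, of which Zfp51 and Zfp53 were called in BMDM unscaled. These values are unscaled, and on that scale each of the 4 runs held log2 fold changes of both signs. Unscaled, the first run also had 2 members called in BMDM and the third had 1 called in BSM. Of all tested genes, 42.0% were called in BMDM and 8.7% in BSM. After quantile normalization 2, 3, 2 and 0 members of the 4 runs were called in BSM, against 18.4% of all tested genes. Sequence-similar neighbours can share reads, and the larger part of the transcript of Zfp422 (93.2%) and of Zfp617 (51.3%) had a copy of at least 95% identity elsewhere, so their values are uncertain.

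The genes that act with KRAB proteins were given by a list of 20, of which 18 were tested and Cbx3 and Mbd3 were under the minimum. Unscaled, 10 were called higher in BMDM and 0 in BSM by limma, with 0 in BSM also at an unadjusted p under 0.05, against 42.0% and 8.7% of all tested genes. After quantile normalization 5 were called in BMDM (Cbx5, Chd4, Suv39h1, Uhrf1 and Dnmt1) and 2 in BSM (Chd3 and Smarcad1), against 20.4% and 18.4% of all tested genes. Of those called, Suv39h1, Uhrf1 and, unscaled, Ehmt2 reached the minimum in BMDM alone and so had to differ, so these counts are descriptions. The list's median log2 fold change was 0.96 unscaled and 0.26 after quantile normalization. Trim28, the corepressor that KRAB domains bind, had an FPKM of 9.82 ± 3.48 in BMDM and 5.95 ± 2.33 in BSM with overlapping groups, and Setdb1, the methyltransferase it recruits, 3.74 ± 1.27 and 4.04 ± 0.530 (SD, n = 3 each). Neither passed the test (adjusted p = 0.141 and 0.744 unscaled, 0.884 and 0.0558 after quantile normalization). The BSM values of Trim28 were 8.59, 5.10 and 4.17, so its overlap came from replicate 1, without which it was called higher in BMDM unscaled (0.90, adjusted p = 0.0306). Without BSM replicate 1, Atf7ip (adjusted p = 0.00404), Morc3 (adjusted p = 0.0174) and, in BSM, Chd3 (adjusted p = 0.0315) were called as well. The heterochromatin protein gene Cbx5 stood at 39.8 ± 6.73 and 5.27 ± 3.17 (adjusted p = 0.00154 unscaled and 0.00631 after quantile normalization). Dnmt1 and Uhrf1, which copy DNA methylation at replication, stood at 58.0 ± 17.9 and 4.81 ± 0.929 and at 4.44 ± 1.39 and 0.0132 ± 0.0115. The second list, of 15 genes of CCR4-NOT and mRNA decay, had 14 tested. Of these 5 were called in BMDM unscaled (Cnot1, Cnot3, Cnot6, Cnot6l and Pan2) and 0 in BSM, also with 0 at an unadjusted p under 0.05, and the median was 0.65. Pan2 reached the minimum in BMDM alone and so had to differ. Against the 42.0% of all tested genes called in BMDM, 5 of 14 was no higher a share. Without BSM replicate 1, Dcp2 was called (adjusted p = 0.00115) and Pan2 was not (adjusted p = 0.0554). After quantile normalization 1 was called in BMDM (Cnot1) and 2 in BSM (Cnot2 and Cnot8), and the median was 0.04. Cnot1, the scaffold of the deadenylase, had an FPKM of 26.2 ± 3.07 in BMDM and 8.93 ± 1.13 in BSM (adjusted p = 0.00146 and, after quantile normalization, 0.0315).

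A second estimate of expression from the same libraries, by ALEXA-Seq, is not independent of the FPKM. Of the members, 142 had an entry and 131 were among the 8467 genes tested in that table. Unscaled, 6 were called in BMDM and 20 in BSM, against 32.1% and 10.4% of all tested genes, and after quantile normalization 3 and 46, against 21.3% and 20.8%. Of the 19 genes called in BSM under both scalings of FPKM, 18 were called in BSM under both scalings of ALEXA-Seq, the exception being Zfp74 (unscaled adjusted p = 0.0523). The 19 were chosen by calls in these libraries, and 11 of them had to differ by the membership minimum, so this count is a description. Zfp36l1 had ALEXA-Seq values of 24.1, 24.0 and 41.6 in BMDM and 2474, 1832 and 1478 in BSM, a log2 fold change of -5.98. Zfp106 had 292, 261 and 309 in BMDM and 93.2, 87.8 and 86.9 in BSM, a log2 fold change of 1.67 (adjusted p = 0.000638). Both genes kept groups that were wide apart.

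BSM replicate 1 set much of the spread in BSM. The median SD of log2(FPKM + 1) over the members was 0.24 in BMDM, 0.43 in BSM and 0.12 in BSM without replicate 1, and over all tested genes 0.26, 0.37 and 0.10. Replicate 1 lay outside the range of the other BSM libraries for 131 members (91.6%), and for 90.8% of all tested genes. It was more than 1 on the log2 scale below both for 27 members (18.9%, against 15.1%) and above both for 9 (6.29%, against 6.40%). Without it, 39 members were called, 12 in BMDM and 27 in BSM, and after quantile normalization 1 and 66. Of all tested genes, 45.9% were then called in BMDM and 11.6% in BSM unscaled, and 25.0% and 24.2% after quantile normalization, each above the share with all libraries. Zfp62, the second most abundant member in BSM, had an FPKM of 16.6, 11.7 and 20.0 in BMDM and 13.9, 31.4 and 37.6 in BSM. Its groups overlapped only through replicate 1, and the unscaled adjusted p was 0.191 with it and 0.0101 without it. After quantile normalization Zfp62 was called higher in BSM with all libraries (-1.40, adjusted p = 0.0359).

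**Figure D5:**
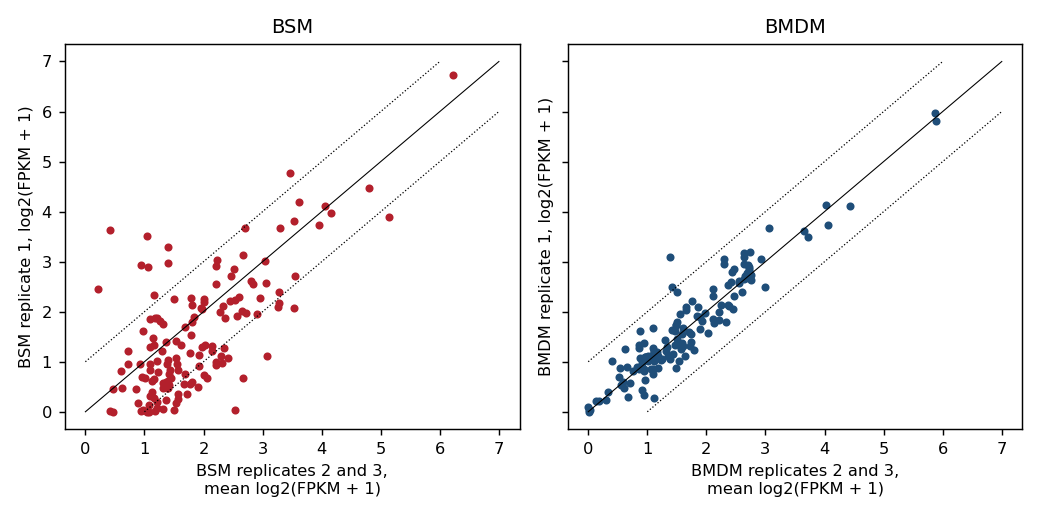
Level of the 143 members in replicate 1 (y axis) against the mean of replicates 2 and 3 (x axis), both as log2(FPKM + 1), for BSM on the left and BMDM on the right, with the line of equal level and dotted lines at a distance of 1. BSM points scatter more widely, with 27 genes more than 1 below both other BSM libraries and 9 above both.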

How the data were processed

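RNA-Seq libraries of sorted BMDM and BSM were analysed, 3 per cell type, with groups taken from the labels. Per the labels and the submitters' processing notes, the authors used CASAVA 1.7.0, TopHat 1.3.1, Bowtie 0.12.7 and Cufflinks 1.0.3 with build mm9, and deposited FPKM per gene. The authors also deposited an ALEXA-Seq expression signal on a linear scale whose normalization is not named. Neither table holds read counts, so the number of reads behind each value is unknown, and library totals were not used here. P-values measure the spread between pooled libraries.

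The 8467 genes that reached an FPKM of 1 in 2 or more libraries were compared on log2(FPKM + 1) by limma 3.58.1 (R 4.3.3) with a mean-variance trend and Benjamini-Hochberg adjustment, at an adjusted p under 0.05. In simulated data of 8467 genes with 200 changed, a log2 fold change of 2 was called for 136 (68%), one of 4 for 195 (97.5%) and one of 1 for 0. Far more genes were called in the data (4296 unscaled), so the adjustment was stricter in the simulation and these shares do not carry over. Members with smaller changes were called, such as Zfp217 at 0.77 unscaled. With 3 against 3 libraries an exact permutation test cannot go below 0.1. Libraries were compared unpaired, and whether same-numbered libraries share mice is not known. Starts were counted from 1.

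Genes were named by role lists, by the largest changes called with and without quantile normalization in the same direction (up to 12 each way), by the 6 highest mean FPKM, by the membership minimum, and by the corepressor and decay lists. Members, lists and rule were chosen with earlier results of these data known. Finger patterns were counted in coding sequences of GENCODE M21 (GRCm38) matched by Ensembl identifier or symbol for 142 members, in place of RefSeq proteins, and the KRAB-like pattern was set by looking at protein sequences. Copies were stretches of at least 100 bases at 95% identity (blastn 2.17.0). The alternatives were other scalings, pseudocounts, level filters, moderation, weights, a replicate block, sex as a covariate, each library left out and, chosen after seeing the data, quantile normalization without BSM replicate 1. Python 3.11.15 was used for tables. 1 marker gene is not reported here.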

Additional observations from a re-analysis of the deposited data

How the results depend on the processing

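The number of members called (32, of which 13 in BMDM and 19 in BSM) changed by over 1.5 times with several settings. Given as total, BMDM and BSM, members called came to 48, 1 and 47 with quantile normalization, 21, 0 and 21 with upper quartile scaling (limma, 2 in BMDM unadjusted), 54, 0 and 54 with the same sum of FPKM (0 in BMDM unadjusted), 25, 8 and 17 with a pseudocount of 0.1, 21, 9 and 12 when an FPKM of 3 was asked of 1 or more libraries, 15, 4 and 11 with no filter, 72, 33 and 39 with array weights (whose estimation stopped short of its tolerance), 41, 20 and 21 with sex as a covariate, 67, 1 and 66 with quantile normalization without BSM replicate 1, 26, 6 and 20 with ALEXA-Seq values, and 49, 3 and 46 with these after quantile normalization. With the replicate block it was 33, 14 and 19. Deviations from the group means correlated by -0.05, -0.02 and 0.14 between same-numbered libraries. With 3 libraries of each cell type this cannot decide whether they share mice. Leaving out 1 library gave 17 to 39 members, 4 to 12 in BMDM and 12 to 27 in BSM: without BMDM replicates 1, 2 and 3 the totals were 19, 21 and 17, and without BSM replicates 1, 2 and 3 they were 39, 23 and 21. ALEXA-Seq calls of members (26) became 49 after quantile normalization and 17 to 43 with a library left out, 43 being without BSM replicate 1. Of the 19 genes called in BSM under both scalings, at least 17 were called in BSM under 10 alternatives that kept all libraries. The 10 include quantile normalization, which helped define the 19, so its count was fixed in advance. The number was 12 when an FPKM of 3 was asked of 1 or more libraries (where the rest were not tested). It was 11 with no filter, and 12 to 19 with a library left out. Of the 19, 11 reached the membership minimum in BSM alone and so had to differ, so these counts are descriptions. The cause of the changes in counts was not tested.

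Corepressor and decay genes called (15, all in BMDM) became 10 (6 in BMDM, 4 in BSM) with quantile normalization, 4 with upper quartile scaling, 10 (4 and 6) with the same sum, 9 with no filter, 27 (26 and 1) with array weights, 13 (8 and 5) with quantile normalization without BSM replicate 1, 10 with ALEXA-Seq values and 9 (6 and 3) with these quantile normalized. With a library left out they ranged from 8 to 19, 8 to 18 in BMDM and 0 to 1 in BSM, and 8 was without BMDM replicate 3. Genes of these lists that reached the minimum in BMDM alone had to differ, so these counts are descriptions. The number of members (143) became 57 when an FPKM of 1 was asked of all 6 libraries and 59 when an FPKM of 3 was asked of 2, and 169 and 125 when an FPKM of 1 was asked of 1 library and of 3. The members' median lay below that of all tested genes by 0.63, a value of -0.52 to -0.89 in the alternatives that kept the filter or raised it, and -0.00602 with no filter.

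Among named genes, signs turned with a call on either side as follows. With the same sum, log2 fold changes became -0.090 for Cbx1, -0.81 for Cnot4, -0.31 for Cnot6l, -1.02 for Cnot8, -0.18 for Ehmt1, -1.03 for Pan3, -0.0093 for Suv39h2, -0.12 for Zfp207, -0.29 for Zfp217, -0.98 for Zfp280c, -1.0004 for Zfp326, -0.029 for Zfp830 and -0.10 for Zfp91. With quantile normalization Cnot8 became -0.65, and without BSM replicate 1 as well Cnot6l became -0.041, Cnot8 -0.56, Pan3 -0.62, Zfp326 -0.53, Zfp830 -0.00392 and Zfp91 -0.031. With quantile normalized ALEXA-Seq values Zfp326 became -0.88. Another 117 values changed sign with no call on either side. Of all 1390 values of 74 named genes, 1161 kept direction and side of the threshold or were called in neither, 133 lost their call, 75 gained one and 21 turned. Groups of 3 libraries were too small for an outlier test.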
